A study of Mus musculus with 16 samples.

Results

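The 40 genes described here encode enzymes and carriers that burn fatty acids, enzymes that use or interconvert ketone bodies, and 3 regulators of that burning. They were taken by symbol from the deposited gene table of epididymal white fat, a visceral depot of male mice. All 40 were found among the 45777 genes of the table, and all 40 passed the filter on low counts that left 19189 genes for testing. They were sorted into 9 roles: 6 carnitine shuttle genes, 5 mitochondrial acyl-CoA dehydrogenases, 3 electron transfer flavoprotein genes, 5 genes of the later mitochondrial steps, 5 double bond enzymes, 8 peroxisomal genes, 2 thioesterases, 3 regulators and 3 ketone body enzymes.

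The 16 libraries fell into 4 groups of 4 male mice. OE mice carried an adipocyte-specific overexpression of LTA4H, the hydrolase that makes leukotriene B4, and Ctrl mice were their controls. All groups ate a diet with 60 kcal% fat from 4 weeks of age, for 16 weeks (tissue at 20 weeks of age) or 4 weeks (tissue at 8 weeks), so age and time on the diet cannot be told apart, and no group ate another diet. The labels name neither a promoter or Cre for the overexpression nor a sequencing batch. Lta4h had 239 to 286 CPM (counts scaled to a common library size) in OE fat and 82.4 to 95.4 CPM in Ctrl fat at 20 weeks, and 251 to 427 CPM in OE fat and 79.4 to 104 CPM in Ctrl fat at 8 weeks.

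In mitochondrial β-oxidation a long-chain fatty acid is activated to acyl-CoA, handed to carnitine by a carnitine palmitoyltransferase, carried across the inner membrane and shortened in a repeating cycle of dehydrogenation, hydration, dehydrogenation and thiolysis. Peroxisomes shorten very long and branched chains by a parallel route. White adipocytes mainly store and release fatty acids, and they burn less of them than liver, heart or brown fat. Ketone bodies are made mainly in liver mitochondria and burned in other tissues, which need Oxct1 for it.

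The labelled tissue fitted its markers: the summed level of 20 mature adipocyte markers was 25281 to 46202 CPM in OE fat and 21160 to 34324 CPM in Ctrl fat at 20 weeks, and 40366 to 72571 CPM in OE fat and 44700 to 68707 CPM in Ctrl fat at 8 weeks. None of the 20 was at 0. OE_8wk replicate 2 and Ctrl_8wk replicate 4 stood apart. Their 20 markers of epididymal epithelium summed to 2503 and 3766 CPM, against at most 169 CPM in any other library (Lcn10, Spint4 and Spink12 of that list were at 0 in every library), and their mean smooth muscle marker levels were the highest of the 16 libraries, at 8.48 and 8.54 log2 CPM. Replicate 1 of OE and of Ctrl at 8 weeks lay apart on the second principal component (13.9% of the variance), at −91.8 and −94.2. On the first component (55.8%) they lay at −19.5 and −29.9, and the other 8-week libraries at 68.8 to 125. OE_20wk replicate 1 lay at 22.4 there, and the other 20-week libraries at −96.6 to −66.7, so the ages overlapped on that component. OE_20wk replicate 1 had the highest adipocyte marker mean (9.63 log2 CPM) and the lowest macrophage marker mean (7.87 log2 CPM) of the 8 libraries at 20 weeks. Total counts were 33.6 M to 67.6 M per library.

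The levels of the 40 genes spanned more than 3 powers of 10. In TPM, the authors' values per transcript length, Ech1 was the highest in every group, with means of 487 in OE fat and 459 in Ctrl fat at 20 weeks, and 661 in OE fat and 666 in Ctrl fat at 8 weeks. Etfb, Hadhb, Acadm, Hadha, Etfa, Acadl, Hsd17b4 and Hadh followed at 20 weeks, with group means of 225 to 357 TPM at that age. Bdh1 was the lowest gene at 20 weeks, with means of 0.225 TPM in OE fat and 0.197 TPM in Ctrl fat. At 8 weeks its means were 3.61 TPM in OE fat and 3.41 TPM in Ctrl fat, but OE_8wk replicate 2 (11.9 TPM) and Ctrl_8wk replicate 4 (11.2 TPM) set these means, and the other 3 libraries of each group had 0.232 to 1.23 TPM in OE fat and 0.431 to 1.24 TPM in Ctrl fat. Cpt1b averaged 2.01 TPM in OE fat and 3.22 TPM in Ctrl fat at that age. Ppara, the nuclear receptor that drives these genes in liver, had means of 3.13 TPM in OE fat and 2.59 TPM in Ctrl fat at 20 weeks, and 5.05 TPM in OE fat and 4.65 TPM in Ctrl fat at 8 weeks. At 20 weeks the means of Acadm, Hadh, Etfa, Hsd17b4 and Acadl lay within 1 SD of each other in each genotype.

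**Figure D1:**
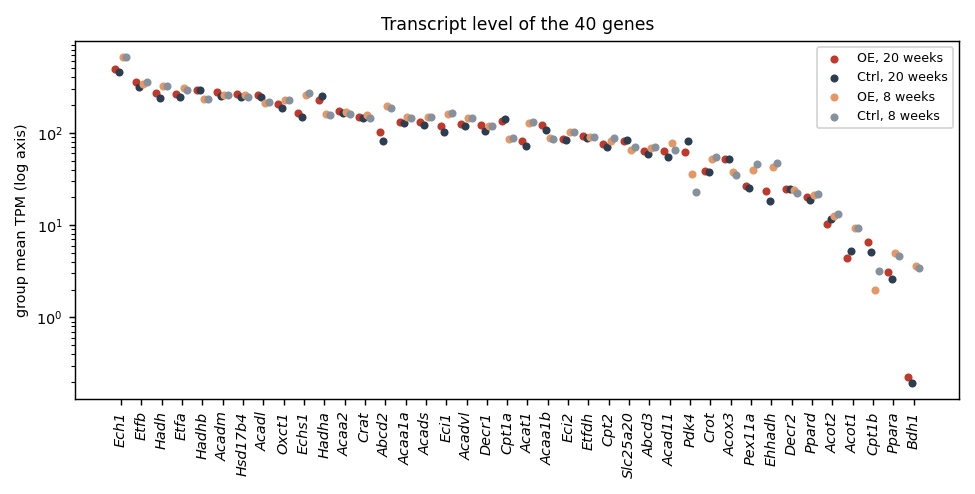
Mean TPM of each of the 40 genes in OE and Ctrl fat at 20 and 8 weeks of age on a log axis, ordered by level, 4 libraries per mean. Ech1 stands at the top of every group, and Bdh1 at 20 weeks is the lowest value, at 0.225 TPM in OE and 0.197 TPM in Ctrl.

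The first question was whether these genes differ between fat with extra LTA4H and control fat. None of the 40 passed the test at either age. After the long diet, 34 of the 40 were nominally higher in OE fat, with a median log2 fold change of 0.13 (all genes tested: 0.02), and after the short diet 14 were nominally higher and 26 lower, with a median of −0.03 (all genes tested: 0.00). With edgeR's quasi-likelihood test, 0 of 40 passed an adjusted p of 0.05 at 20 weeks, where 0.0261% of all genes tested passed, and 0 of 40 at 8 weeks, where 0.0208% did. At an unadjusted p under 0.05 there were 0 of the 40 genes at 20 weeks and 2 at 8 weeks. Among the 19189 genes tested there were 762 at 20 weeks and 424 at 8 weeks. DESeq2 and limma voom each called 0 of the 40 at both ages. Averaged over both ages, 0 of 40 passed (0.0365% of all genes tested), and 0 passed by DESeq2 or voom. At an unadjusted p under 0.05 there were 0 of the 40 and 389 of all genes tested. The median at 20 weeks was 0.03 without OE_20wk replicate 1 and the 8-week replicates 1, and −0.02 with 2 surrogate variables as covariates (variables estimated from the data to stand for unlabelled differences between libraries).

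At 20 weeks the 5 genes with the smallest p were Ehhadh at 0.41 ± 0.25 (log2 fold change ± SE), Abcd2 at 0.36 ± 0.23, Cpt1b at 0.38 ± 0.24, Pdk4 at −0.37 ± 0.24 and Abcd3 at 0.15 ± 0.10, each with an adjusted p of 0.996. Ehhadh is the peroxisomal bifunctional enzyme, Abcd2 and Abcd3 bring acyl-CoAs into the peroxisome, and Pdk4 is a kinase that switches off pyruvate dehydrogenase and so spares glucose. Mature adipocyte markers leaned the same way at 20 weeks, with 20 of 20 nominally higher in OE fat, a median of 0.38 and 0 called, and macrophage markers leaned the other way with a median of −0.26. The part of this shift in the 34 positive values was not tested. In bulk tissue, fewer cells of a type and less RNA per cell cannot be told apart.

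The 2 of 40 genes at an unadjusted p under 0.05 at 8 weeks (all genes tested: 424 of 19189) were Pdk4 and Cpt1b. Pdk4 was nominally higher and Cpt1b nominally lower in OE fat. Pdk4 had 37.9, 52.4, 86.4 and 65.8 CPM in OE fat, against 38.1, 39.1, 28.6 and 48.3 CPM in Ctrl fat, a log2 fold change of 0.65 ± 0.24 with an unadjusted p of 0.018 and an adjusted p of 1. The groups overlapped in OE replicate 1, the lowest of its group. Cpt1b, the muscle form of the first shuttle enzyme, had 2.18, 2.13, 3.19 and 3.89 CPM in OE fat, against 3.59, 5.31, 3.70 and 5.62 CPM in Ctrl fat. Its log2 fold change was −0.68 ± 0.24, with an unadjusted p of 0.0135 and an adjusted p of 1, and OE replicate 4 overlapped the Ctrl range. The next 3 genes by p were Decr2 at 0.08 ± 0.07, Acad11 at 0.24 ± 0.22 and Pex11a at −0.22 ± 0.22, each with an adjusted p of 1. Averaged over both ages the smallest p values belonged to Acad11 at 0.24 ± 0.16, Abcd2 at 0.20 ± 0.16, Ppara at 0.25 ± 0.21, Decr2 at 0.05 ± 0.05 and Etfa at 0.11 ± 0.12, again with an adjusted p of 1.

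A p that misses the threshold does not show equal levels, so the 95% intervals matter. For Cpt1a the interval of the genotype log2 fold change ran from −0.22 to 0.13 at 20 weeks and from −0.21 to 0.14 at 8 weeks, and for Hadha from −0.31 to 0.09 at 20 weeks and from −0.19 to 0.21 at 8 weeks. For Acadm it ran from −0.28 to 0.61 at 20 weeks and from −0.47 to 0.42 at 8 weeks. Pdk4 and Cpt1b had intervals of −0.90 to 0.17 and −0.14 to 0.90 at 20 weeks, which hold changes of either sign, as do those of Cpt1a, Hadha and Acadm. At 8 weeks Pdk4 and Cpt1b had log2 fold changes of 0.65 and −0.68, each with an unadjusted edgeR p under 0.05 and not called. Their intervals at that age are not given here. Bdh1 and Acot1 had the widest intervals.

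**Figure D2:**
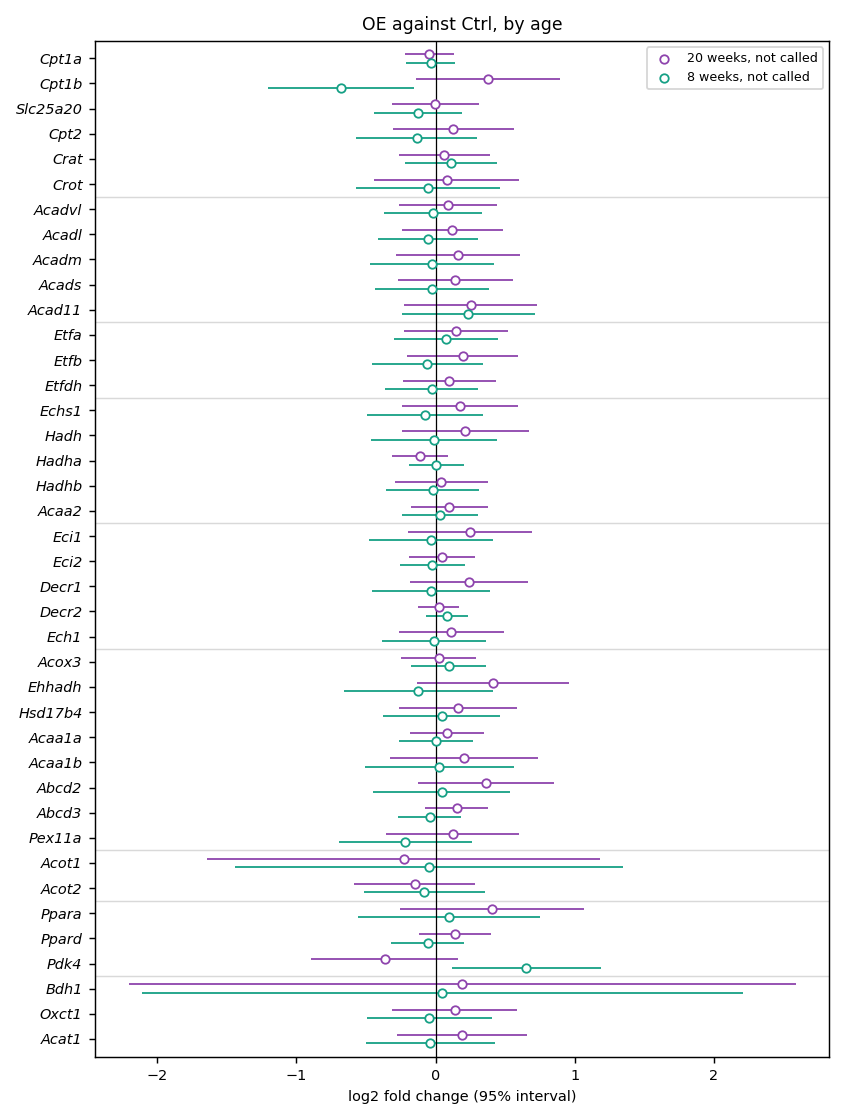
Log2 fold change of OE over Ctrl fat for each of the 40 genes at 20 weeks (purple) and 8 weeks (green), with the 95% interval from the edgeR fit. All points are open because no gene passed the test, and at 20 weeks 34 of the 40 points lie right of 0.

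The second question was what changed between 8 and 20 weeks in each genotype. In OE fat 5 of the 40 genes rose (Cpt1a, Cpt1b, Hadha, Acox3 and Pdk4) and 7 fell (Echs1, Ech1, Ehhadh, Abcd2, Pex11a, Bdh1 and Acat1). In Ctrl fat 4 rose (Cpt1a, Hadha, Acox3 and Pdk4) and 13 fell: the same 7 and Hadh, Eci1, Eci2, Abcd3, Ppara and Ppard. The genes that rose include the entry step of the pathway and the brake on glucose oxidation. Those that fell in both genotypes include the peroxisomal enzyme Ehhadh, the peroxisomal transporter Abcd2 and the double bond isomerase Ech1. The enoyl-CoA hydratase Echs1 and the ketone body thiolase Acat1 also fell in both, and the isomerases Eci1 and Eci2 fell in Ctrl fat only. The median log2 fold change of the 40 genes was −0.19 in OE fat (all genes tested: −0.03) and −0.34 in Ctrl fat (all genes tested: −0.05). With 2 surrogate variables these medians were −0.01 in OE fat and 0.09 in Ctrl fat, so the lean to lower values was not kept.

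These counts stand in a tissue in which a large part of the transcriptome differed between ages. Among all genes tested, 13.1% rose and 9.91% fell in OE fat, and 19.6% rose and 21.3% fell in Ctrl fat. Groups did not overlap for 4 higher and 3 lower genes of the 40 in OE fat, where 12.9% of all genes were higher and 9.50% lower without overlap. In Ctrl fat they did not overlap for 3 higher and 12 lower genes of the 40, where the shares over all genes were 18.5% and 14.8%. All 4 genes that rose in Ctrl fat also rose in OE fat (100% of the Ctrl list and 80% of the OE list), and 7 fell in both (53.8% of the Ctrl list and 100% of the OE list). These comparisons share no library but came from the same fit, and 38 of the 40 genes had the same sign in both. The shares of all genes called in both genotypes, or with the same sign in both, are not given here. These overlaps therefore do not show a trait particular to the 40 genes. The counts depended on libraries and settings. The shares of all genes called in those other fits are not given here, so a changed count is not particular to the 40 genes. Without Ctrl_8wk replicate 4 and OE_8wk replicate 2, 4 rose and 11 fell in OE fat and 5 rose and 21 fell in Ctrl fat. With 2 surrogate variables 7 rose and 3 fell in OE fat and 5 rose and 4 fell in Ctrl fat. Of the genes called without these variables, Cpt1a, Cpt1b, Hadha, Abcd2, Pex11a and Bdh1 kept their call in OE fat, and Cpt1a, Hadha, Pdk4, Abcd2, Pex11a and Bdh1 in Ctrl fat. With upper-quartile scaling 3 rose and 9 fell in OE fat.

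**Figure D3:**
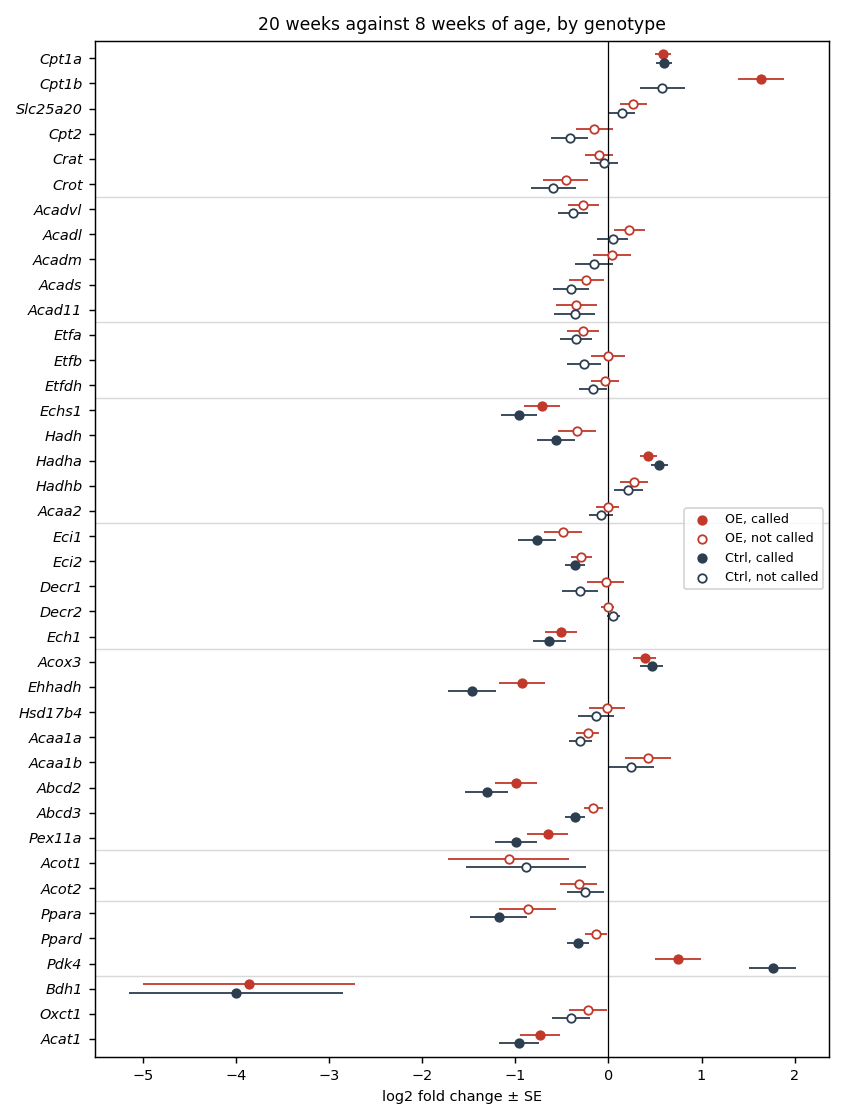
Log2 fold change of 20 over 8 weeks for each of the 40 genes in OE (red) and Ctrl fat (dark), with SE; filled points passed an adjusted p of 0.05 in the edgeR fit. Cpt1a, Hadha, Acox3 and Pdk4 are filled right of 0 in both genotypes, and Bdh1 lies far to the left with the widest errors.

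Most of the 40 genes lay above the median age change of the adipocyte markers. The median log2 fold change of the 20 mature adipocyte markers was −0.74 in OE fat, with 10 of 20 lower, and −1.10 in Ctrl fat, with 14 of 20 lower. Of the 40 genes, 5 in OE fat and 4 in Ctrl fat lay below that median. The median of all genes tested, −0.03 in OE fat and −0.05 in Ctrl fat, also lay above it. A place above the adipocyte markers is therefore not particular to the 40 genes. Macrophage markers moved the other way, with 18 of 20 higher in OE fat (median 1.68) and 19 of 20 higher in Ctrl fat (median 2.27). At 20 weeks the 20 macrophage markers summed to 14047 to 22174 CPM in OE fat and 16650 to 21638 CPM in Ctrl fat. At 8 weeks they summed to 11097 to 14624 CPM in OE fat and 7785 to 14750 CPM in Ctrl fat. Lpl is on both the macrophage and the adipocyte list, so these sums do not measure macrophages alone. The mean macrophage marker level at 20 weeks was 7.87 to 8.97 log2 CPM in OE fat and 8.42 to 9.11 in Ctrl fat. At 8 weeks that mean was 6.27 to 7.42 log2 CPM in OE fat and 6.11 to 6.72 in Ctrl fat. Smooth muscle markers fell, with 7 of 10 lower in OE fat and 9 of 10 in Ctrl fat, as did endothelial markers, with 3 of 10 and 9 of 10. The part of these shifts in the changes of the 40 genes was not tested.

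**Figure D4:**
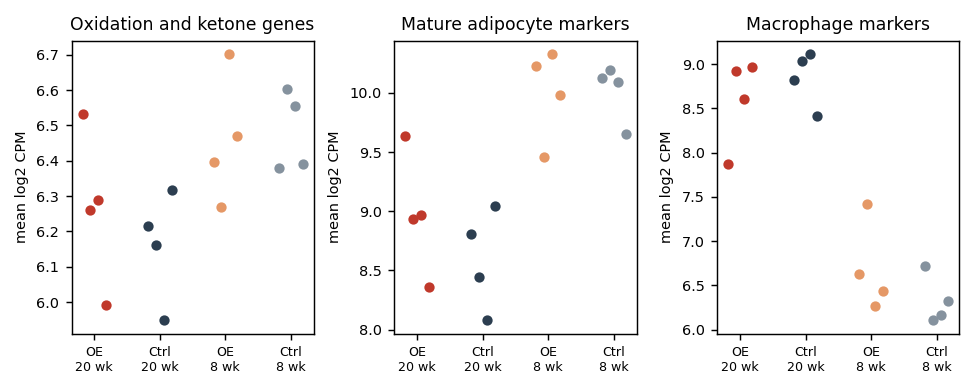
Mean log2 CPM in each library for the 40 oxidation and ketone genes (left), 20 mature adipocyte markers (middle) and 20 macrophage markers (right), 4 libraries per group, on separate axes. OE_20wk replicate 1 has the highest adipocyte mean (9.63) and the lowest macrophage mean (7.87) at that age, and it is also the highest of the 20-week libraries on the left.

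In the carnitine shuttle Cpt1a rose in both genotypes. Cpt1a (gene ID 12894, chr19:3322326-3385735, mm10) makes the liver form of carnitine palmitoyltransferase I on the outer mitochondrial membrane, the step that malonyl-CoA inhibits. Cpt1a had 247, 276, 269 and 296 CPM in the 4 OE libraries at 20 weeks, against 183, 187, 181 and 174 CPM in the 4 at 8 weeks. Ctrl fat had 256, 305, 299.6 and 262 CPM at 20 weeks, against 191, 193, 193 and 166 CPM at 8 weeks. Every library at 20 weeks was above every library at 8 weeks. The rise was 1.5-fold in OE fat (log2 fold change 0.59 ± 0.08, edgeR adjusted p 5.43e-04) and 1.51-fold in Ctrl fat (0.60 ± 0.08, adjusted p 1.42e-04).

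Cpt1b rose in OE fat and missed the threshold in Ctrl fat. It had 8.69, 9.19, 10.9 and 6.67 CPM in the 4 OE libraries at 20 weeks, against 2.18, 2.13, 3.19 and 3.89 CPM in the 4 at 8 weeks, with no overlap and a log2 fold change of 1.64 ± 0.24 (edgeR adjusted p 6.98e-04). The Ctrl libraries had 7.85, 6.31, 5.05 and 8.04 CPM at 20 weeks, against 3.59, 5.31, 3.70 and 5.62 CPM at 8 weeks, and the groups overlapped, with 0.58 ± 0.24 and an adjusted p of 0.0653. The difference between the genotypes' age changes was 1.06 ± 0.34 with an unadjusted p of 0.00728 and an adjusted p of 0.982, so it was not called. Of 50-base windows of its longest transcript, 93% also occur in Gm44502, a gene model that overlaps Cpt1b on the same strand, so its counts are uncertain. Markers of skeletal muscle, where Cpt1b is the main form, summed to 36.7 to 64.3 CPM in OE fat and 35.3 to 56.7 CPM in Ctrl fat at 20 weeks. At 8 weeks they summed to 54.3 to 215 CPM in OE fat and 54.9 to 209 CPM in Ctrl fat. The maxima at 8 weeks were in OE_8wk replicate 2 and Ctrl_8wk replicate 4, the libraries with the epididymal transcripts. The highest other library at that age, Ctrl_8wk replicate 1, had 86.5 CPM. Of 10 brown and beige adipocyte markers, 4 rose and 0 fell in OE fat (median 0.89) and 3 rose and 1 fell in Ctrl fat (median 0.36), and between OE and Ctrl fat 9 were nominally higher at 20 weeks and 8 nominally lower at 8 weeks, with 0 called. Their summed level was 55.6 to 125 CPM in OE fat and 55.4 to 87.9 CPM in Ctrl fat at 20 weeks, and 48.4 to 65.4 CPM in OE fat and 44.0 to 70.2 CPM in Ctrl fat at 8 weeks, and their part in the Cpt1b values was not tested.

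The other 4 shuttle genes did not pass in either genotype. Slc25a20, the carnitine-acylcarnitine carrier, had 0.27 ± 0.14 in OE fat and 0.14 ± 0.14 in Ctrl fat, and Cpt2, the inner membrane transferase, had −0.15 ± 0.20 and −0.42 ± 0.20 in the same order. Crat, the short-chain acetyltransferase, had −0.10 ± 0.15 in OE fat and −0.05 ± 0.15 in Ctrl fat. Crot, the peroxisomal octanoyltransferase, lay at 48.9 to 57.8 CPM in OE and 46.4 to 51.0 CPM in Ctrl fat at 20 weeks. At 8 weeks OE fat had 58.9 to 62.6 CPM in 3 libraries and 105 CPM in OE_8wk replicate 2, and Ctrl fat had 57.0 to 59.1 CPM in 3 libraries and 123 CPM in Ctrl_8wk replicate 4, the libraries with the epididymal transcripts.

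The Cpt1a promoter, from 250 bases before to 50 bases after the RefSeq start (GRCm38.p6), was searched together with those of the other genes because these genes are textbook targets of PPAR nuclear receptors. It holds 1 match to the nuclear receptor half-site AGGTCA, on the minus strand, 94 bases before the start. The letters are from RefSeq, chr19:3323051-3323350 on the plus strand, with the match in capitals. This window lies inside the Cpt1a span given above (chr19:3322326-3385735), so the start used here is not the first base of that span.
Cpt1a: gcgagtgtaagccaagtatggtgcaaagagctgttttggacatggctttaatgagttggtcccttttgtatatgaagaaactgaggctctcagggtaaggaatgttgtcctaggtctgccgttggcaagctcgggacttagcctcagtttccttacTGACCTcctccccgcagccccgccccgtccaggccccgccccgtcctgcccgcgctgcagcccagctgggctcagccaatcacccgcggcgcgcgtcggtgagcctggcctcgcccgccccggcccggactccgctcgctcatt
Echs1, which changed with age in the opposite direction, holds the same half-site on its own strand 83 bases before the start (chr7:140116372-140116671, minus strand, match in capitals).
Echs1: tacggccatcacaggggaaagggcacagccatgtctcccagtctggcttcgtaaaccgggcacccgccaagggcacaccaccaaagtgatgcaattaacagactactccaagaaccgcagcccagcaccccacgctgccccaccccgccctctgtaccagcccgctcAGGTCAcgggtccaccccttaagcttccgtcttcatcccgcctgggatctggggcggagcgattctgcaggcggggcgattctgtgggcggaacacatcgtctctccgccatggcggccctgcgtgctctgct
Of the 40 genes 33 had a promoter in the table. The half-site, on either strand, was in 4 of them (Acadm, Acadvl, Cpt1a and Echs1), and in 18.1% of the 27025 genes with a promoter and 16.3% of all windows. The PPAR response element, read as a direct repeat of AGGNCA with 1 base between the copies on either strand, can contain that half-site and was in 0 of the 33 and in 0.451% of all genes. A match describes letters only, and a missing one says nothing of binding elsewhere.

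The dehydrogenases that open each turn of the mitochondrial cycle showed no called change. Sorted into this role were Acadvl, Acadl, Acadm and Acads, for very long, long, medium and short chains, and Acad11. The site of the Acad11 protein in the cell was not examined here. The 5 genes had log2 fold changes of −0.35 to 0.22 in OE fat and −0.40 to 0.05 in Ctrl fat, and 0 of 5 passed in either genotype. Acadm, the medium-chain enzyme, averaged 267 ± 51.3 CPM in OE fat at 20 weeks and 260.2 ± 67.2 CPM at 8 weeks (SD, n = 4). In Ctrl fat it averaged 238 ± 43.5 CPM at 20 weeks and 265 ± 48.3 CPM at 8 weeks. The transferred electrons pass through Etfa and Etfb to Etfdh, and these 3 genes had −0.28 to −0.01 in OE fat and −0.35 to −0.17 in Ctrl fat, with 0 of 3 called. Of Etfb's windows 67.3% are shared with Gm45233, a gene model on the same strand, so its counts are uncertain. Of the exon bases of Acadvl 42.9% overlap Dvl2 on the other strand, so its counts are uncertain if counting ignored strand.

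The later mitochondrial steps divided. Hadha, the α subunit of the trifunctional protein that hydrates and dehydrogenates long chains, rose, whereas Echs1, the short-chain enoyl-CoA hydratase, fell in both genotypes. Hadha had 282, 293, 301 and 270.5 CPM in the 4 OE libraries at 20 weeks, against 217, 202, 236 and 197 CPM in the 4 at 8 weeks. In Ctrl fat Hadha had 294, 337, 299 and 310.0 CPM at 20 weeks, against 221, 237, 212 and 178 CPM at 8 weeks. Again the ages did not overlap, with log2 fold changes of 0.43 ± 0.09 in OE fat (edgeR adjusted p 0.00492) and 0.55 ± 0.09 in Ctrl fat (adjusted p 5.22e-04).

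Echs1 had 154, 115, 113 and 83.8 CPM in the 4 OE libraries at 20 weeks, against 192, 139.5, 245 and 184 CPM in the 4 at 8 weeks, and OE_20wk replicate 1 overlapped the younger group. Its Ctrl values were 108, 94.8, 87.3 and 121 CPM at 20 weeks, against 181, 233, 218 and 170.0 CPM at 8 weeks, without overlap. The fall was −0.71 ± 0.19 in OE fat (edgeR adjusted p 0.0162) and −0.96 ± 0.19 in Ctrl fat (adjusted p 0.00163). The OE call was lost without OE_20wk replicate 4 or OE_8wk replicate 3 (adjusted p 0.0565 to 0.0622). With 2 surrogate variables Echs1 had −0.41 in OE fat and −0.38 in Ctrl fat and was no longer called. Hadh, the short-chain hydroxyacyl-CoA dehydrogenase, had −0.34 ± 0.21 in OE fat and fell by 0.56 ± 0.21 on the log2 scale in Ctrl fat (adjusted p 0.0436). The Ctrl call was lost in 10 of 16 fits that each left out 1 library, with adjusted p values of 0.0510 to 0.126 there, and with 2 surrogate variables the value turned to 0.03. Acaa2, the mitochondrial thiolase, had −0.01 ± 0.13 in OE fat and −0.08 ± 0.13 in Ctrl fat.

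Hadha and Hadhb, the α and β subunits of 1 enzyme complex, are neighbours transcribed away from each other, with starts 273 bases apart (Hadha chr5:30119423-30154980, minus strand; Hadhb chr5:30155253-30184593, plus strand). Their promoter windows share 228 bases, shown here in capitals within the Hadhb window (RefSeq, GRCm38.p6, chr5:30155003-30155302, plus strand).
Hadhb: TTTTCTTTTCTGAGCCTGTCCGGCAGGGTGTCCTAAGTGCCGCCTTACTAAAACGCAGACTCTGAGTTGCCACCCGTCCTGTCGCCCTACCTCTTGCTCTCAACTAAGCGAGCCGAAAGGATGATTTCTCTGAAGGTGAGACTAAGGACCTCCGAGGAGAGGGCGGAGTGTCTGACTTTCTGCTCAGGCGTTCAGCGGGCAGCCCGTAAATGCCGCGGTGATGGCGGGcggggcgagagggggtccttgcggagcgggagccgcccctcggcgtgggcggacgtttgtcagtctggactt
Hadhb was not called, with 0.27 ± 0.15 in OE fat and 0.21 ± 0.15 in Ctrl fat. It averaged 283 ± 28.4 CPM in OE fat at 20 weeks and 234 ± 48.2 CPM at 8 weeks, and 275 ± 24.8 CPM in Ctrl fat at 20 weeks and 237 ± 40.1 CPM at 8 weeks. Whether the changes of the pair differ was not tested. Of Hadhb's windows 61.5% also occur in Gm13910, so reads may have been split between the copies.

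Enzymes that handle double bonds of unsaturated fatty acids leaned lower. Ech1, the dienoyl-CoA isomerase, fell in both genotypes, and Eci1 and Eci2, the enoyl-CoA isomerases, fell in Ctrl fat and were not called in OE fat. Ech1 had 331, 257, 253 and 198 CPM in the 4 OE libraries at 20 weeks, against 348, 287, 490.0 and 353 CPM in the 4 at 8 weeks, and in Ctrl fat 265, 239.8, 200.1 and 256 CPM at 20 weeks, against 325, 425, 393 and 346 CPM at 8 weeks. The ages overlapped in OE fat and not in Ctrl fat. Its log2 fold change was −0.51 ± 0.17 in OE fat (edgeR adjusted p 0.0477) and −0.63 ± 0.17 in Ctrl fat (adjusted p 0.0111), and the OE call was lost in 13 of 16 fits that left out 1 library, with adjusted p values of 0.0507 to 0.166. Neither Ech1 call was kept with 2 surrogate variables, at −0.25 in OE fat (0.328) and −0.15 in Ctrl fat (0.680).

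Eci1 had 82.1, 54.7, 64.2 and 44.3 CPM in the 4 OE libraries at 20 weeks, against 86.0, 57.1, 119 and 81.2 CPM in the 4 at 8 weeks, which overlapped (−0.49 ± 0.21, not called). Ctrl fat had 56.4, 51.3, 43.1 and 56.0 CPM at 20 weeks, against 89.7, 95, 91.7 and 75.3 CPM at 8 weeks, without overlap (−0.77 ± 0.21, edgeR adjusted p 0.0101). Eci2 had −0.29 ± 0.11 in OE fat and fell by 0.36 ± 0.11 on the log2 scale in Ctrl fat (adjusted p 0.0179), a call lost without Ctrl_20wk replicate 3 or Ctrl_8wk replicate 2 (0.0526 to 0.0575). The Ctrl values of Eci1 and Eci2 were −0.23 and −0.10 with 2 surrogate variables and were not called (0.516 and 0.555). For these genes the difference between genotypes was not called. Decr1, the mitochondrial dienoyl-CoA reductase, had −0.03 ± 0.19 in OE fat and −0.31 ± 0.19 in Ctrl fat, and the peroxisomal Decr2 had −0.01 ± 0.07 and 0.05 ± 0.07 in the same order.

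The peroxisomal genes held the steepest called falls outside the ketone enzymes. Ehhadh (gene ID 74147, chr16:21761285-21787834) and Abcd2 (gene ID 26874, chr15:91145871-91192007) had every library at 20 weeks below every library at 8 weeks, over both genotypes together. Ehhadh had 50.7, 23.8, 31.9 and 24.2 CPM in the 4 OE libraries at 20 weeks, against 54.1, 55.1, 87.7 and 51.8 CPM in the 4 at 8 weeks. The Ctrl libraries had 22.7, 23.7, 18.1 and 33.6 CPM at 20 weeks, against 63.1, 77.9, 64.3 and 65.4 CPM at 8 weeks. OE_20wk replicate 1, the library richest in adipocyte markers at that age, lay just under the younger libraries, and the other 7 libraries at 20 weeks were far lower. The level was 1.90-fold lower in OE fat (log2 fold change −0.93 ± 0.25, edgeR adjusted p 0.016) and 2.76-fold lower in Ctrl fat (−1.47 ± 0.25, adjusted p 6.14e-04). The OE call was lost without OE_20wk replicate 2 or 4 or OE_8wk replicate 3 (adjusted p 0.0580 to 0.0627). Neither Ehhadh call was kept with 2 surrogate variables, at −0.63 in OE fat (adjusted p 0.107) and −0.86 in Ctrl fat (0.0941).

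Abcd2 had 371, 248, 294 and 194 CPM in the 4 OE libraries at 20 weeks, against 629, 371, 686 and 511 CPM in the 4 at 8 weeks, and OE_20wk replicate 1 met the lowest younger library, OE_8wk replicate 2, to within 1 CPM. Its Ctrl values were 240.1, 202, 159 and 259 CPM at 20 weeks, against 500.0, 661, 523 and 449 CPM at 8 weeks. The fall was −0.99 ± 0.23 in OE fat (edgeR adjusted p 0.00693) and −1.31 ± 0.23 in Ctrl fat (adjusted p 6.60e-04), and it was called in every fit that left out 1 library and with 2 surrogate variables. Abcd3 had −0.16 ± 0.10 in OE fat and fell by 0.36 ± 0.10 on the log2 scale in Ctrl fat (adjusted p 0.0146), and with 2 surrogate variables the Ctrl value was −0.04 (0.840).

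Pex11a, which helps peroxisomes divide, fell in both genotypes, by 0.65 ± 0.22 on the log2 scale in OE fat (edgeR adjusted p 0.0464) and 0.99 ± 0.22 in Ctrl fat (adjusted p 0.00337). The OE call was lost in 10 of 16 fits that left out 1 library (0.0505 to 0.155). Acox3, an acyl-CoA oxidase for branched chains, rose, unlike Ehhadh, Abcd2 and Pex11a, by 0.39 ± 0.12 in OE fat (adjusted p 0.035) and 0.46 ± 0.12 in Ctrl fat (adjusted p 0.00987). Its OE call was lost without OE_20wk replicate 2, 3 or 4 or OE_8wk replicate 1 or 3 (0.0641 to 0.101), and with 2 surrogate variables Acox3 was called in neither genotype (0.0746 in OE fat and 0.143 in Ctrl fat). Hsd17b4, the second bifunctional enzyme, had −0.02 ± 0.19 in OE fat and −0.13 ± 0.19 in Ctrl fat and was not called.

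The peroxisomal thiolases share sequence, with 34% of the windows of Acaa1a found in Acaa1b, so their split is uncertain. Acaa1b had 119, 89.8, 89.5 and 64.3 CPM in the 4 OE libraries at 20 weeks, against 88.4, 46.5, 69.0 and 66.4 CPM in the 4 at 8 weeks, with overlap and 0.42 ± 0.25, not called. In Ctrl fat Acaa1b had 72.8, 83.8, 62.1 and 95.6 CPM at 20 weeks, against 64.9, 86.4, 73.8 and 39.8 CPM at 8 weeks, also overlapping (0.25 ± 0.25). Acaa1a leaned the other way, with −0.22 ± 0.12 in OE fat and −0.30 ± 0.12 in Ctrl fat, and was not called.

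The thioesterases Acot1 (cytosol) and Acot2 (mitochondria), which cleave acyl-CoA to free acid and are close paralogs, were low and uneven. Acot1 had 4.69, 1.98, 2.59 and 3.76 CPM in the 4 OE libraries at 20 weeks, against 1.56, 8.46, 3.73 and 13.6 CPM in the 4 at 8 weeks. Ctrl fat had 3.33, 4.96, 4.37 and 2.62 CPM at 20 weeks, against 1.17, 4.71, 12.4 and 9.89 CPM at 8 weeks. Replicate 1 of each genotype at 8 weeks lay below all libraries of the older groups, and the highest of each genotype at 8 weeks lay above them. The log2 fold changes of −1.07 ± 0.65 in OE fat and −0.88 ± 0.65 in Ctrl fat were not called. Acot2 had −0.32 ± 0.20 in OE fat and −0.25 ± 0.20 in Ctrl fat, not called. Of the windows of Acot1 23.9% occur in Acot2.

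Among the regulators, Pdk4 rose in both genotypes, and Ppara and Ppard fell in Ctrl fat. Pdk4 (gene ID 27273, chr6:5483351-5496278) had 103, 127, 93.0 and 84.3 CPM in the 4 OE libraries at 20 weeks, against 37.9, 52.4, 86.4 and 65.8 CPM in the 4 at 8 weeks. The Ctrl libraries had 175, 139, 96.7 and 112 CPM at 20 weeks, against 38.1, 39.1, 28.6 and 48.3 CPM at 8 weeks. The OE ages overlapped through OE_20wk replicate 4 and OE_8wk replicate 3, and the Ctrl ages stood well apart. The rise was 1.68-fold in OE fat (log2 fold change 0.74 ± 0.24, edgeR adjusted p 0.0411) and 3.40-fold in Ctrl fat (1.76 ± 0.25, adjusted p 1.74e-04). The OE call was lost in 9 of 16 fits that left out 1 library (adjusted p 0.0529 to 0.128) and without OE_8wk replicate 2 and Ctrl_8wk replicate 4 (0.0761) or with 2 surrogate variables (0.120). The age change in OE fat minus that in Ctrl fat was −1.02 ± 0.35, with an unadjusted p of 0.0103 and an adjusted p of 0.982.

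Ppara (gene ID 19013, chr15:85734910-85806851) had 12.6, 9.78, 8.54 and 4.58 CPM in the 4 OE libraries at 20 weeks, against 10.8, 14.7, 18.6 and 20.7 CPM in the 4 at 8 weeks. Its Ctrl values were 7.30, 7.34, 4.17 and 7.95 CPM at 20 weeks, against 9.56, 15.8, 17.7 and 17.3 CPM at 8 weeks. The OE ages overlapped and the Ctrl ages did not. It had −0.87 ± 0.30 in OE fat (edgeR adjusted p 0.0528, not called) and fell by 1.18 ± 0.31 on the log2 scale in Ctrl fat (adjusted p 0.00851). With 2 surrogate variables the Ctrl value was −0.24 and was not called (adjusted p 0.673). Ppard, the more widely expressed relative, had −0.13 ± 0.12 in OE fat and fell by 0.33 ± 0.12 in Ctrl fat (adjusted p 0.0397). The Ppard call was lost in 6 of 16 fits that left out 1 library, with adjusted p values of 0.0567 to 0.124, and with 2 surrogate variables (−0.22, adjusted p 0.316).

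**Figure D5:**
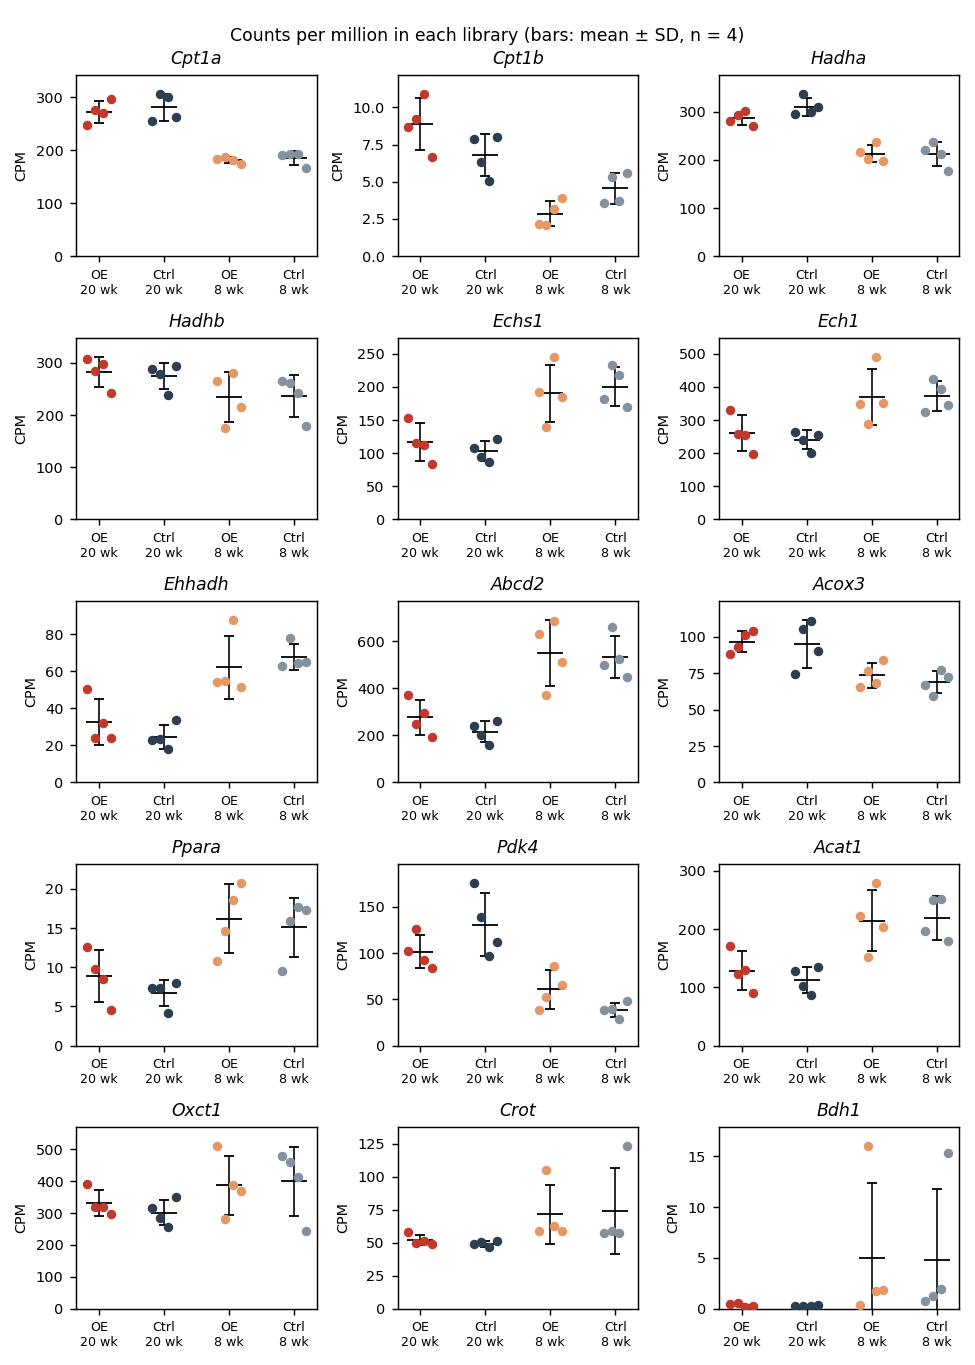
CPM of 15 genes in each of the 16 libraries, by genotype and age, with mean ± SD (n = 4) on axes that start at 0. Cpt1a and Hadha are higher in all 8 libraries at 20 weeks, Ehhadh and Abcd2 are lower in all 8, and OE_8wk replicate 2 and Ctrl_8wk replicate 4 carry most of Bdh1.

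The ketone body enzymes all leaned lower, and 2 of the 3 were called in both genotypes. Acat1, the mitochondrial acetoacetyl-CoA thiolase at the end of ketone use, had 171, 123, 130.1 and 90.6 CPM in the 4 OE libraries at 20 weeks, against 222, 152, 278 and 204 CPM in the 4 at 8 weeks. In Ctrl fat Acat1 had 127, 103, 86.1 and 135 CPM at 20 weeks, against 196, 250.1, 252 and 179 CPM at 8 weeks. The ages overlapped in OE fat through OE_20wk replicate 1 and OE_8wk replicate 2, and did not in Ctrl fat. The fall was −0.73 ± 0.22 in OE fat (edgeR adjusted p 0.0247) and −0.96 ± 0.22 in Ctrl fat (adjusted p 0.00357). Leaving out OE_20wk replicate 2, 3 or 4 or OE_8wk replicate 3 ended the OE call (0.0550 to 0.0892). Neither Acat1 call was kept with 2 surrogate variables, at −0.40 in OE fat (adjusted p 0.0974) and −0.30 in Ctrl fat (0.354). Oxct1, the transferase that activates acetoacetate, was not called, with −0.22 ± 0.21 in OE fat and −0.40 ± 0.21 in Ctrl fat.

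Bdh1, which interconverts β-hydroxybutyrate and acetoacetate, had 0.417, 0.519, 0.157 and 0.271 CPM in the 4 OE libraries at 20 weeks, against 0.396, 16.0, 1.77 and 1.83 CPM in the 4 at 8 weeks. In Ctrl fat Bdh1 had 0.290, 0.244, 0.251 and 0.409 CPM at 20 weeks, against 0.717, 1.25, 1.95 and 15.3 CPM at 8 weeks. OE_8wk replicate 2 and Ctrl_8wk replicate 4, with 593 and 1130 counts, carried most of the Bdh1 counts of their groups, and they are the libraries with the epididymal and smooth muscle transcripts. The part of those transcripts in the Bdh1 value was not tested. With all libraries the log2 fold change was −3.86 ± 1.14 in OE fat (edgeR adjusted p 0.0254) and −4.0 ± 1.15 in Ctrl fat (adjusted p 0.0144). Without both libraries it was −1.96 in OE fat (adjusted p 0.0181) and −2.12 in Ctrl fat (adjusted p 0.00877). Leaving out Ctrl_8wk replicate 4 alone gave an adjusted p of 0.0786 in Ctrl fat, and leaving out OE_8wk replicate 2 or OE_20wk replicate 2, 3 or 4 gave 0.0558 to 0.132 in OE fat. At 20 weeks the counts were 6 to 21 per library.

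Whether the age change itself differs between OE and Ctrl fat was tested as an interaction. None of the 40 genes passed with edgeR, as 0% of all genes tested did, with 650 of all genes at an unadjusted p under 0.05. At an unadjusted p under 0.05 there were 2 of the 40, Cpt1b and Pdk4, and DESeq2 and voom called 0. The next by p were Ehhadh at 0.54 ± 0.35, Abcd3 at 0.20 ± 0.15 and Ppard at 0.20 ± 0.17, with adjusted p values of 0.982. The larger number of falling genes in Ctrl fat than in OE fat is therefore not shown to be a difference between genotypes.

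Genes of the same pathways outside the 40 were read from 5 further lists with 116 different genes. The counts of all 5 lists stand beside the shares of all genes tested. Of these, 13.1% rose and 9.91% fell in OE fat, and 19.6% rose and 21.3% fell in Ctrl fat. Of 26 other mitochondrial genes tested, 3 rose and 9 fell in OE fat, and 3 rose and 11 fell in Ctrl fat. Hsd17b10, a mitochondrial dehydrogenase of short and branched acyl-CoAs, fell by 0.74 ± 0.12 on the log2 scale in OE fat (edgeR adjusted p 0.001) and by 0.88 ± 0.12 in Ctrl fat (adjusted p 1.38e-04). Acadsb and Echdc3 also fell, by 1.07 ± 0.19 and 1.15 ± 0.23 in OE fat and by 1.32 ± 0.19 and 1.59 ± 0.23 in Ctrl fat. Slc25a29, a basic amino acid carrier once described as a carnitine carrier, fell by 2.0 ± 0.35 in OE fat and fell by 1.97 ± 0.35 in Ctrl fat, and Ivd, of leucine breakdown, fell by 1.13 ± 0.24 in OE fat and 1.41 ± 0.24 in Ctrl fat. Aldh9a1, of carnitine synthesis, rose by 0.60 ± 0.11 in OE fat and 0.80 ± 0.12 in Ctrl fat, and the acyl-CoA synthetase Acsl5 rose by 0.40 ± 0.12 in OE fat and 0.48 ± 0.12 in Ctrl fat. Acsl3 rose by 0.55 ± 0.11 in OE fat and had 0.18 ± 0.11 in Ctrl fat. Cpt1c, the brain form of CPT1, had 0.35 ± 0.18 in OE fat and rose by 0.58 ± 0.18 in Ctrl fat.

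Of 37 genes tested from the list of other peroxisomal genes, 1 rose and 8 fell in OE fat, and 2 rose and 17 fell in Ctrl fat. Abcd4 is on this list as a relative of Abcd2, but its product is a lysosomal and not a peroxisomal transporter. Abcd4 had 0.33 ± 0.12 in OE fat and rose by 0.42 ± 0.12 on the log2 scale in Ctrl fat. Pxmp2, a peroxisomal membrane channel protein, fell by 1.66 ± 0.28 in OE fat and 2.11 ± 0.29 in Ctrl fat. Eci3, Phyh (the phytanoyl-CoA hydroxylase) and Pex3 (of peroxisome assembly) fell by 2.23 ± 0.43, 0.81 ± 0.19 and 0.54 ± 0.14 in OE fat and by 2.35 ± 0.43, 0.92 ± 0.19 and 0.67 ± 0.14 in Ctrl fat.

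Of 9 other ketone body genes tested, 2 rose and 1 fell in OE fat, and 2 rose and 3 fell in Ctrl fat. Aacs, which activates acetoacetate in the cytosol for lipid synthesis, fell by 1.40 ± 0.21 on the log2 scale in OE fat (edgeR adjusted p 6.44e-04) and 2.05 ± 0.21 in Ctrl fat (adjusted p 3.62e-05). Acat3 and Acat2, cytosolic thiolases, had −0.46 ± 0.21 and −0.26 ± 0.23 in OE fat and fell by 1.04 ± 0.21 and 0.88 ± 0.23 in Ctrl fat. Slc16a6, a monocarboxylate carrier, rose by 0.60 ± 0.19 in OE fat and 0.86 ± 0.19 in Ctrl fat.

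Of 25 other regulators tested, 1 rose and 10 fell in OE fat, and 1 rose and 13 fell in Ctrl fat. Pparg, the adipocyte master regulator, which is also on the adipocyte marker list, fell by 0.75 ± 0.16 on the log2 scale in OE fat (edgeR adjusted p 0.00404) and 1.13 ± 0.16 in Ctrl fat (adjusted p 1.56e-04). The corepressor Nrip1, the AMP kinase subunit Prkaa1 and the kinase Pdk3 fell by 1.23 ± 0.23, 0.47 ± 0.09 and 0.51 ± 0.11 in OE fat and by 0.98 ± 0.23, 0.43 ± 0.09 and 0.45 ± 0.11 in Ctrl fat. Prkaa2, the phosphatase Pdp2 and the PPAR partner Rxra fell by 0.65 ± 0.19, 0.42 ± 0.12 and 0.55 ± 0.15 in OE fat and by 1.15 ± 0.19, 0.71 ± 0.12 and 0.80 ± 0.15 in Ctrl fat. Esrra rose by 0.33 ± 0.11 in OE fat and had 0.19 ± 0.11 in Ctrl fat, and Pdk1 had 0.32 ± 0.13 in OE fat and rose by 0.67 ± 0.13 in Ctrl fat.

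Of 13 PPAR target genes outside oxidation, the same 3 rose and 0 fell in each genotype. Among all genes tested 13.1% rose in OE fat and 19.6% in Ctrl fat, so 3 of 13 does not stand out as a set. At an unadjusted p under 0.05 there were 5 of the 13 in each genotype. Of the 19189 genes tested, 7064 in OE fat and 9629 in Ctrl fat had such a p. Ucp2, an inner membrane carrier, rose by 1.74 ± 0.22 on the log2 scale in OE fat (edgeR adjusted p 3.51e-04) and 2.1 ± 0.22 in Ctrl fat (adjusted p 3.83e-05). Plin2, a lipid droplet coat protein, rose by 1.75 ± 0.28 in OE fat and 1.85 ± 0.28 in Ctrl fat, and the transcription factor gene Creb3l3 by 2.23 ± 0.47 and 2.45 ± 0.47 in the same order. Between OE and Ctrl fat at one age, 0 genes of these 5 lists were called.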

How the data were processed

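RNA-seq of epididymal fat from 16 mice was analysed from the authors' gene table. RNeasy RNA went into TruSeq stranded mRNA libraries, per the labels' protocols. The tools were Trimmomatic, bcl2fastq 2.20.0, StringTie 2.1.3b and HISAT2 2.1.0 with the build mm10, per the submitters' processing notes; the strand setting and annotation release are not given in the sources used here. The deposited counts, whole numbers not normalised by the authors, were tested; StringTie derives counts from coverage, so they may be rounded estimates. The deposited TPM values, scaled by the authors to transcript length and library, served for levels only. The deposited FPKM values were not tested.

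In R 4.3.3, edgeR 4.0.16 kept genes with filterByExpr at a minimum count of 10, scaled libraries by TMM and fitted all 4 groups with a robust quasi-likelihood model with 12 residual degrees of freedom. Of 6 contrasts, each was adjusted by Benjamini-Hochberg over 19189 genes, and a gene was called, and said to rise or fall, at an adjusted p under 0.05. Errors of fold changes are SE, and 95% intervals use the same fit. Log2 CPM used a prior count of 2. Alternatives were upper-quartile and RLE scaling, other filters, DESeq2 1.42.0, limma 3.58.1 (voom), surrogate variables from sva 3.50.0, a fold threshold of 1.2, a replicate block and left-out libraries. The fit was tested on simulated data. Figures used Python 3.11.15 and matplotlib 3.10.9.

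The members, lists, libraries left out and tests were chosen with earlier results of these data known. Values per library are given for the called genes with the smallest adjusted p of each role, up to 2, and for Pdk4, Ppara, Cpt1a, Cpt1b, Acaa1b and Acot1; values of Crot, and the choice of Hadhb, Acox3, Oxct1 and Crot for a plot, followed after their values were seen. Where no gene was called, the 5 with the smallest p are named, and of each further list up to 4 called genes in each direction and genotype, some of which are not reported here. Titles call the samples mice and give no further origin, so p-values measure the spread between these samples. Gene positions and promoters are RefSeq's on GRCm38.p6, and shared 50-base windows were counted in GENCODE transcripts.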

Additional observations from a re-analysis of the deposited data

Results flagged for a closer look

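Within each group of 4 libraries the highest or lowest CPM of a gene was set against the others, and 10 of 160 groups held a library far from the rest. Chance gives about 1 in 20, and the count is near that rate. It does not show that any 1 of these flags is more than chance. Bdh1 was high in OE_8wk replicate 2 (16.0 CPM, others 0.396 to 1.83) and in Ctrl_8wk replicate 4 (15.3 CPM, others 0.717 to 1.95). Crot was high in the same libraries, with 105 CPM in OE_8wk replicate 2 (others 58.9 to 62.6) and 123 CPM in Ctrl_8wk replicate 4 (others 57.0 to 59.1). These are the libraries whose epididymal markers summed to 2503 and 3766 CPM, and the part of that in Bdh1 and Crot was not tested.

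Ctrl_8wk replicate 4 was also low for Cpt1a, at 166 CPM (others 191 to 193), and for Etfb, at 126 CPM (others 166 to 170). OE_20wk replicate 4 was low for Slc25a20, at 50.9 CPM (others 71.5 to 73.6). Ehhadh was high in OE_8wk replicate 3, at 87.7 CPM (others 51.8 to 55.1), and in Ctrl_8wk replicate 2, at 77.9 CPM (others 63.1 to 65.4). Acot2 was low in Ctrl_8wk replicate 1, at 8.6 CPM (others 15.5 to 16.5).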

How the results depend on the processing

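Over 49 gene results and 29 settings, 1283 of 1411 values kept direction and side of the threshold, 127 lost a call, 0 gained one and 1 reversed: Hadh in Ctrl fat, 0.029 with 2 surrogate variables. Of the 29 age calls 21 were lost in at least 1 setting and 8 in none: Cpt1a, Cpt1b and Abcd2 in OE fat, and Cpt1a, Hadha, Pdk4, Abcd2 and Pex11a in Ctrl fat. The other 20 results are genotype and interaction values with adjusted p near 1, whose steadiness says little. The median of the 40 genes in Ctrl fat moved to 0.09 with 2 surrogate variables. The counts that follow are of the 40 genes alone. Without the shares of all genes called in each setting, they do not show a change particular to the 40. The 13 falling genes in Ctrl fat became 23 with voom, 4 with 2 surrogate variables and 21 without Ctrl_8wk replicate 4 and OE_8wk replicate 2. The 7 falling in OE fat became 12 with voom, 3 with 2 surrogate variables, 3 at a fold threshold of 1.2, 2 with only the compared groups, and 11 without Ctrl_8wk replicate 4 and OE_8wk replicate 2 or without OE_20wk replicate 1 and the 8-week replicates 1. The 5 rising in OE fat became 3 with upper-quartile scaling, with no count filter, without the 8-week replicates 1, and without these and OE_20wk replicate 1; they became 2 at the fold threshold. Upper-quartile scaling moved the median of all genes by under 0.1, to −0.10 in OE fat and −0.12 in Ctrl fat. Leaving out 1 library gave 3 to 5 rising and 1 to 10 falling genes in OE fat, and 4 to 5 rising and 10 to 16 falling in Ctrl fat; in OE fat 1 fell without OE_20wk replicate 4, 2 without OE_20wk replicate 2 or OE_8wk replicate 3, and 3 without OE_20wk replicate 3, and 3 rose without OE_20wk replicate 2, 3 or 4 or OE_8wk replicate 1. The causes were not tested. No setting called a genotype difference or interaction among the 40 genes.

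Replicate numbers are shared by the groups, but most same-numbered libraries did not deviate together: of 16 pairs, r ran from −0.57 to 0.83 and 2 were above 0.1. The exception was replicate 1 of OE and Ctrl at 8 weeks (0.83), the only pair that correlated best with its own number. With the number as a replicate block, 4 of the 40 genes rose and 5 fell in OE fat, and 4 rose and 12 fell in Ctrl fat. The share of all genes called with that block is not given here, so these counts do not show a change particular to the 40 genes. Depth limits Bdh1 at 20 weeks, with 6 to 21 counts per library.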
